A study of Homo sapiens with 6 samples.

Results

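The Krüppel-like factors (KLF) are a family of transcription factors that bind GC-rich and CACCC-type DNA elements through zinc fingers at their C-terminal end. The 9 members described here were chosen by name (KLF2, KLF3, KLF4, KLF6, KLF9, KLF10, KLF11, KLF13 and KLF16), and every array probe whose platform gene symbol was one of these was taken. This gave 12 of 47218 probes, for 8 of the 9 genes (of 20041 genes with a named probe). The annotation used here names no probe for KLF11, a factor close to KLF10, and it was not analysed here. The cells were GEN2.2, a human line from a leukaemia of plasmacytoid dendritic cells (pDC), the cells that make interferon when they sense nucleic acids in endosomes. The 2 groups were 3 untreated samples in log-phase growth and 3 samples given 1 µM ODN2006, a CpG oligonucleotide that is a ligand of Toll-like receptor 9, for 2 h. All 6 are samples of this 1 leukaemic line, and no control oligonucleotide was part of the comparison, so an effect of CpG motifs and one of adding an oligonucleotide cannot be told apart.

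Members of the family sit at different points of immune and stress programmes. KLF2 keeps lymphocytes quiescent and, in myeloid cells and endothelium, restrains inflammatory transcription, while KLF4 takes part in monocyte differentiation and in the pluripotency network. KLF6 is an early response activator that in macrophages favours inflammatory gene expression. KLF10, like KLF11, is a repressor induced early by TGF-beta that recruits the SIN3A corepressor, KLF9 is induced by glucocorticoids, KLF13 activates the chemokine gene CCL5 in T cells, and KLF3 represses through the CtBP corepressors.

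Between 13454 and 15447 probes were detected per array (detection p under 0.01), with median raw signals of 107 to 121. Of 13 pDC markers, 12 were detected on all arrays of a group and none of these passed the test, with log2 changes from -0.57 to 0.32. LILRA4, a defining pDC marker, was detected on 1 array only. Markers of T and NK cells (6 of 9 on no array), stroma (4 of 5 on no array) and red cells and platelets (4 of 5 on no array) were mostly undetected. The T and NK cell markers CD5, NKG7 and CD3G were, however, detected on all 6 arrays. Of 4 B cell markers on the array 2, CD79A and CD79B, were detected on all 6 arrays at a probe and tested, and did not pass. Of 9 markers of monocytes and conventional dendritic cells, CD14, CSF1R, LYZ and CD1C were detected on all 6 arrays. S100A9 was detected on 3 untreated arrays and 1 ODN2006 array, and FCN1, S100A8, VCAN and CLEC9A on no array. Nothing in the labels says that replicates came from separate cultures, so the p-values reflect the spread of these samples alone, which may be technical, and precision is limited by having 6 arrays.

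From the RefSeq table of promoters (GRCh38.p14, 250 bases before to 50 after a gene's start), 8 windows for 7 of the 9 members were searched. The windows of KLF2 and KLF6 are shown because these were the members that rose after ODN2006. Capitals mark a match to the MEF2 motif in KLF2, and the KLF6 window has no capitals.
KLF2, chr19:16324576-16324875, plus strand: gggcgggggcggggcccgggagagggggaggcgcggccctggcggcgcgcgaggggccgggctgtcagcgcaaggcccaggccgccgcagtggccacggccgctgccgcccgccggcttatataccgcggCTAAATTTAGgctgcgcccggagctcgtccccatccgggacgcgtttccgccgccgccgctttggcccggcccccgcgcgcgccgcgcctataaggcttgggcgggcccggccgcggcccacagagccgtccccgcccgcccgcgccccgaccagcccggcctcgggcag
KLF6, chr10:3785160-3785459, minus strand: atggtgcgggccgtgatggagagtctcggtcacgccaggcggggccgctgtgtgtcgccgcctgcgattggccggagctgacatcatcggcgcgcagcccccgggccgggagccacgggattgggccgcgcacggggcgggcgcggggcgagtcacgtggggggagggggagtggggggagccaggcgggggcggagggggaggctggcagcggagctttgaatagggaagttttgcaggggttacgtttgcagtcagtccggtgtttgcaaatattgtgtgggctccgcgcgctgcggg

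Both windows are GC-rich, with 80.7% G and C in KLF2 and 70.7% in KLF6, against a median of 58.7% over all 35116 promoter windows of the table. A set of motifs was searched on both strands. These were the cyclic AMP response element TGACGTCA, the AP-1 element TGANTCA, the CACCC box CCACACCC, the GC box GGGGCGGGG, and the NF-kB, SRF and MEF2 motifs. The MEF2 match of KLF2, CTAAATTTAG, starts 120 bases before the gene's start and overlaps no other match, and 2.99% of all windows hold a MEF2 match. A GC box, found in 15.7% of all windows, was present in the KLF2, KLF4, KLF13 and KLF16 windows and in 1 of the 2 KLF11 windows, and a cyclic AMP response element (1.85% of all windows) in that same KLF11 window. The KLF6 and KLF9 windows held none of these motifs. None of the member windows searched held the AP-1, CACCC, NF-kB or SRF letters, which 7.71%, 3.28%, 11.3% and 1.29% of all windows hold. No window of KLF3 or KLF10 was searched.

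KLF6 and KLF2 rose after ODN2006, by 5.19-fold and 2.56-fold, and no KLF gene fell. Of the 8 genes with a probe, 5 were bright enough to be tested (detected on all 3 arrays of at least 1 group), and KLF4, KLF9 and KLF13 did not pass. Across all 8706 genes tested, 3.41% were called higher and 1.81% lower by limma (Benjamini-Hochberg adjusted p below 0.05). The median log2 change was 0.17 over the 5 tested KLF genes and -0.05 over all tested genes. The other 3 genes, KLF10, KLF3 and KLF16, lay near or below the detection limit in both groups.

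KLF6 had normalized log2 intensities of 10.40, 10.53 and 10.40 on the 3 untreated arrays and of 12.66, 12.83 and 12.96 on the 3 ODN2006 arrays. All ODN2006 values thus lay above all untreated ones, as in 8.48% of all tested genes, and the values within a group were close together (10.44 ± 0.08 untreated and 12.82 ± 0.15 after ODN2006, mean ± SD, n = 3). The log2 change was 2.38 ± 0.14 SE, a rise of 5.19-fold with a 95% interval from 4.18 to 6.46 (limma, adjusted p = 4.23e-07). It was the rise at rank 55 of 8706 tested genes, and 0.62% of tested genes changed by more in either direction. Before any normalization the raw signal of the KLF6 probe was 1402 to 1503 on untreated and 6820 to 8985 on ODN2006 arrays. Between arrays of the same replicate number the log2 difference was 2.27, 2.30 and 2.56, so each pair showed a rise of similar size. In bulk RNA a change in the number of cells that express a gene and one in the RNA per cell cannot be told apart.

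**Figure D1:**
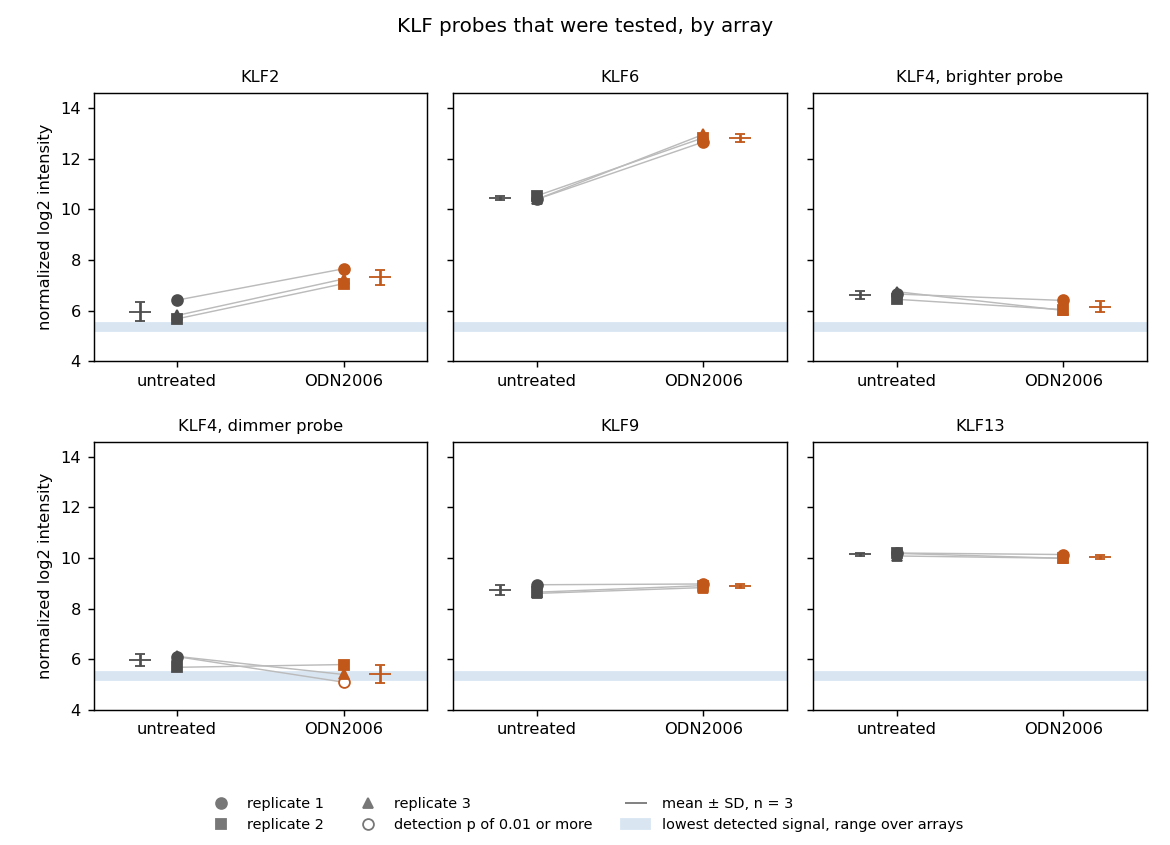
Normalized log2 intensity (y axis) of the 6 KLF probes that were tested, on each untreated and each ODN2006 array. Symbols give the replicate number, lines join arrays of the same number, bars give mean ± SD (n = 3) and the band is the range over arrays of the lowest detected signal. The KLF6 and KLF2 groups are separate, KLF4 is lower with both probes near the band, and the means of KLF9 and KLF13 differ by 0.17 and -0.12.

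KLF2 was close to the detection limit in untreated cells, at 6.41, 5.67 and 5.80, and reached 7.65, 7.06 and 7.25 after ODN2006 (normalized log2 intensity). It was detected on all 6 arrays, and the lowest ODN2006 value lay above the highest untreated one. Replicate 1 was the highest array in both groups, and the differences between same-numbered arrays, 1.24, 1.39 and 1.44, varied less than the levels. The log2 change was 1.36 ± 0.21 SE (5.96 ± 0.39 against 7.32 ± 0.30, mean ± SD, n = 3), a rise of 2.56-fold with a 95% interval from 1.86 to 3.54 (limma, adjusted p = 0.00196). The size of this rise depends on how background is handled, since the signal was low: without background correction the log2 change was 0.65 ± 0.11 SE (adjusted p = 0.0095).

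KLF4 had a lower mean after ODN2006 at both of its probes, and neither difference passed the test. The brighter probe had log2 intensities of 6.65, 6.44 and 6.75 on untreated arrays and of 6.40, 6.04 and 6.005 on ODN2006 arrays. These normalized groups do not overlap (the raw signals do), as is the case for 20.9% of all tested genes, with ODN2006 below in 12.4%. The log2 change was -0.47 ± 0.16 SE with a 95% interval from -0.82 to -0.12 (limma, adjusted p = 0.154). Over the alternatives run the limma adjusted p was 0.0574 to 0.379. It was lowest with the replicate block, a fit with the replicate number as an added term. The dimmer probe gave 6.10, 5.68 and 6.11 against 5.09, 5.79 and 5.40, where the groups overlap and 1 ODN2006 array was below the detection threshold (-0.54 ± 0.20 SE, adjusted p = 0.185). It thus entered the test only through the untreated group, where its mean was higher, and does not count as separate support for a fall. In replicate 2 the dimmer probe was higher by 0.11 after ODN2006, against lower values in the other pairs. The 5 tested markers of monocytes and conventional dendritic cells, cells in which KLF4 is known to act, also had changes below 0, from -0.38 to -0.18, and none passed. The 12 tested pDC markers, of which none passed either, had changes from -0.57 to 0.32. Among the monocyte and conventional dendritic cell markers, S100A9 was tested only through the untreated group. The normalized intensities of all 9 markers on that list, on the linear scale and with 1 probe per gene, summed to 10753 to 12114 on untreated and 8492 to 11173 on ODN2006 arrays, ranges that overlap. FCN1, S100A8, VCAN and CLEC9A of the list were detected on no array. Whether these markers have a part in the KLF4 difference was not tested.

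KLF9 and KLF13 showed no difference that passed. KLF9 had 8.94, 8.65 and 8.60 on untreated and 8.97, 8.91 and 8.83 on ODN2006 arrays (log2 intensity), and the groups overlap. Its log2 change was 0.17 ± 0.15 SE with a 95% interval from -0.15 to 0.50 (limma, adjusted p = 0.708). KLF13 had 10.20, 10.18 and 10.08 on untreated and 10.14, 9.99 and 9.99 on ODN2006 arrays, again with overlap. Its log2 change was -0.12 ± 0.14 SE with a 95% interval from -0.41 to 0.18 (adjusted p = 0.819). The intervals of both genes leave out a change as large as that of KLF2, whose own interval starts at 0.89.

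**Figure D2:**
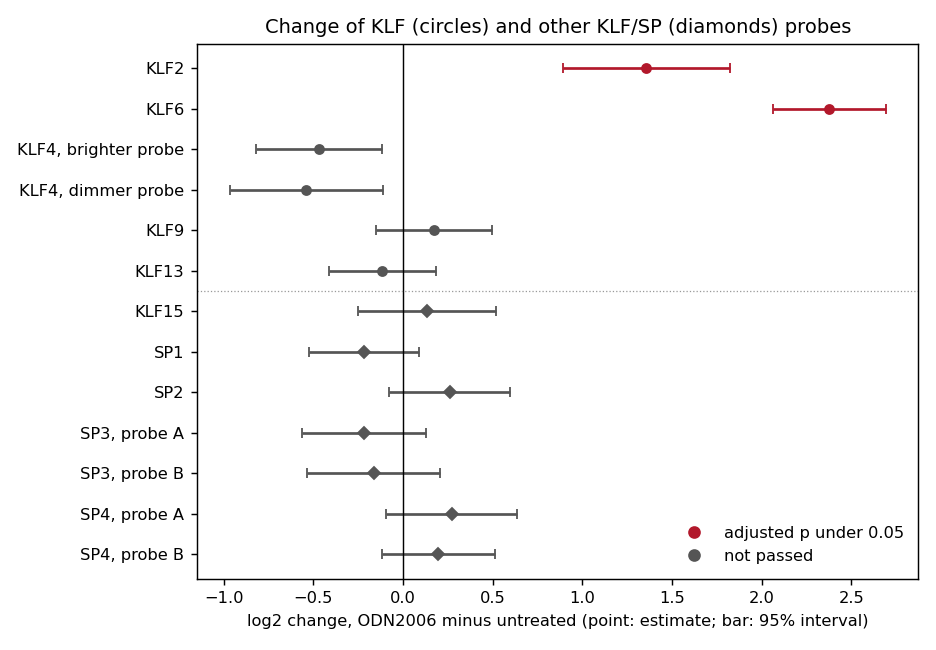
Log2 change (x axis, ODN2006 minus untreated) of each tested KLF probe (circles) and of each tested probe of other KLF and SP genes (diamonds), with 95% intervals from the limma fit. KLF2 (1.36) and KLF6 (2.38) lie to the right of all others, both KLF4 probes lie below 0, and every other interval includes 0.

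KLF10 was too dim to test, and each of its 3 probes had higher normalized values on all ODN2006 arrays than on any untreated array. Its probe ILMN_2411897 had log2 intensities of 4.47, 4.61 and 4.42 on untreated arrays and of 4.77, 5.72 and 5.67 on ODN2006 arrays. Only ODN2006 replicates 2 and 3 passed the detection threshold for it. The probe ILMN_1659122 had 4.43, 4.56 and 4.61 against 5.48, 5.15 and 4.98 and was detected on no array. The probe ILMN_1667594 had 4.89, 4.97 and 4.65 against 5.11, 5.20 and 5.20 and was detected on ODN2006 replicate 2 alone, and its raw signals overlap between the groups. Replicate 1 was the highest ODN2006 array at ILMN_1659122 and the lowest at the other probes, so the probes do not rank the treated arrays alike.

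Among 17056 named probes that were likewise untested and detected on no untreated array, 5.17% had all ODN2006 values above all untreated ones. The 3 KLF10 probes measure transcripts of 1 gene and share each array, so they are not separate observations. When every probe of the table was tested, none of them passed in the limma fit (adjusted p of 0.119 to 0.418). With ODN2006 replicate 1 left out, ILMN_2411897 met the detection rule and was called higher (adjusted p = 0.000985). It entered that fit only through the ODN2006 group, once its lowest ODN2006 array was gone, and the untreated level is only a bound, so the call is not read as a result about KLF10 and no fold is given.

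KLF3 and KLF16 were detected on no array. The KLF3 probe ILMN_1670245 had 4.40, 4.99 and 5.16 on untreated arrays and 5.10, 4.65 and 4.81 on ODN2006 arrays, and ILMN_2048507 had 4.25 to 4.34 against 4.22 to 4.37. Both overlap between groups. KLF16, a GC-box-binding repressor, had 4.32, 4.32 and 4.44 against 4.53, 4.61 and 4.93, without overlap but below the lowest detected signal of every array (5.18 to 5.50). All ODN2006 values likewise lay above in 5.17% of the 17056 named probes that were untested and detected on no untreated array, and nothing is read from this for KLF16. The probe of KLF3-AS1, an antisense RNA of the KLF3 locus, was detected on no array either. A level of these transcripts below what the array detects is not the same as their absence.

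**Figure D3:**
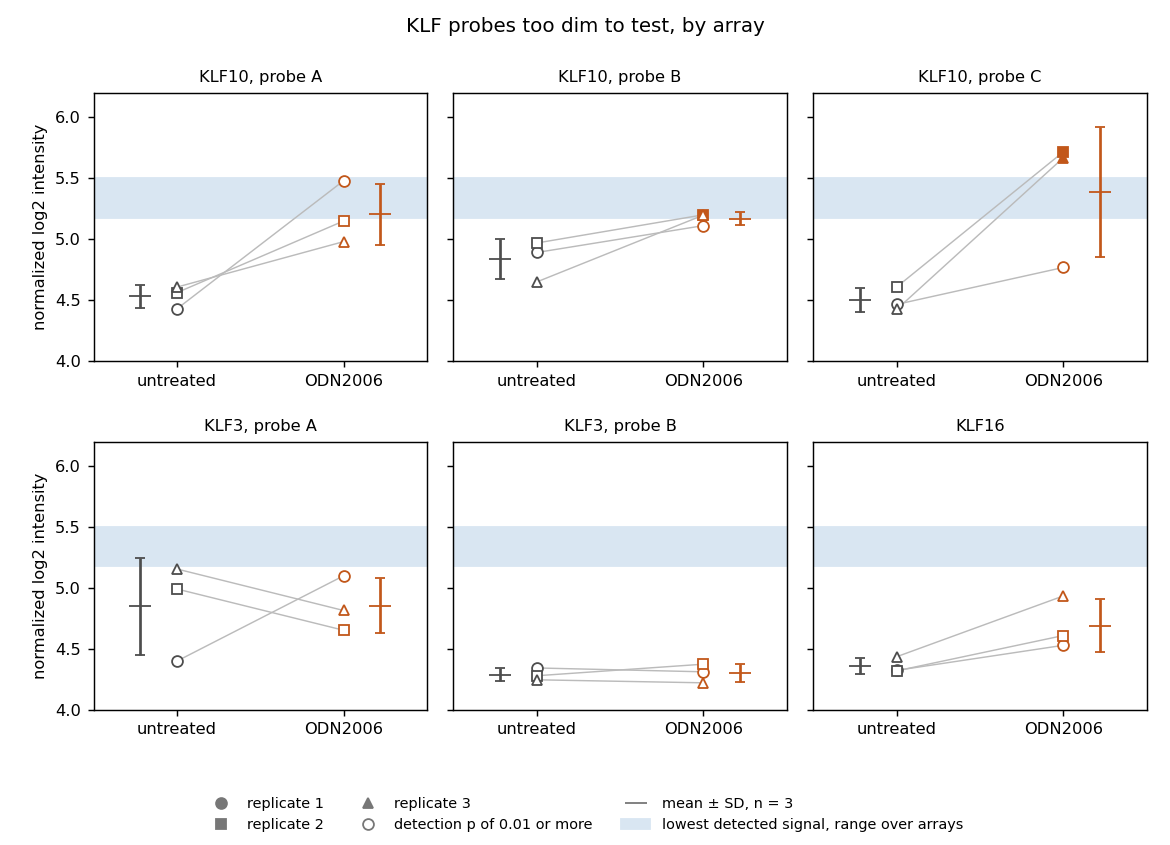
Normalized log2 intensity (y axis) of the 6 KLF probes that were not tested, by array, with symbols, bars (mean ± SD, n = 3) and band as in the plot of the tested probes. KLF10 probes A, B and C are ILMN_1659122, ILMN_1667594 and ILMN_2411897, and KLF3 probes A and B are ILMN_1670245 and ILMN_2048507. Open symbols mark arrays on which a probe was not detected, and the 3 filled symbols all belong to KLF10 after ODN2006.

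The rest of the KLF family and the related SP factors, which bind the same GC-rich elements, gave no call. Of 18 such genes, 16 had a named probe, 5 were tested and none passed, with a median log2 change of 0.14. SP1, the founding member, differed by -0.22 ± 0.14 SE, SP2 by 0.26 ± 0.16, SP3 by -0.22 ± 0.16, SP4 by 0.20 ± 0.14 and KLF15 by 0.14 ± 0.18. Their limma adjusted p lay at 0.518 or above. KLF12 was detected on 2 ODN2006 arrays, SP6 and SP8 on 1 each, and SP7 on 2 untreated arrays, and these were not tested. KLF1, KLF5, KLF7, KLF8, KLF14, KLF17 and SP5 were detected on no array, and KLF18 and SP9 were not analysed here. Without untreated replicate 2, SP7 met the detection rule and was called lower (adjusted p = 0.0073), the only call in this group of genes under any setting run. It entered that fit only through the untreated group, being detected on no ODN2006 array, so no fold is given and nothing is read from the call.

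**Figure D4:**
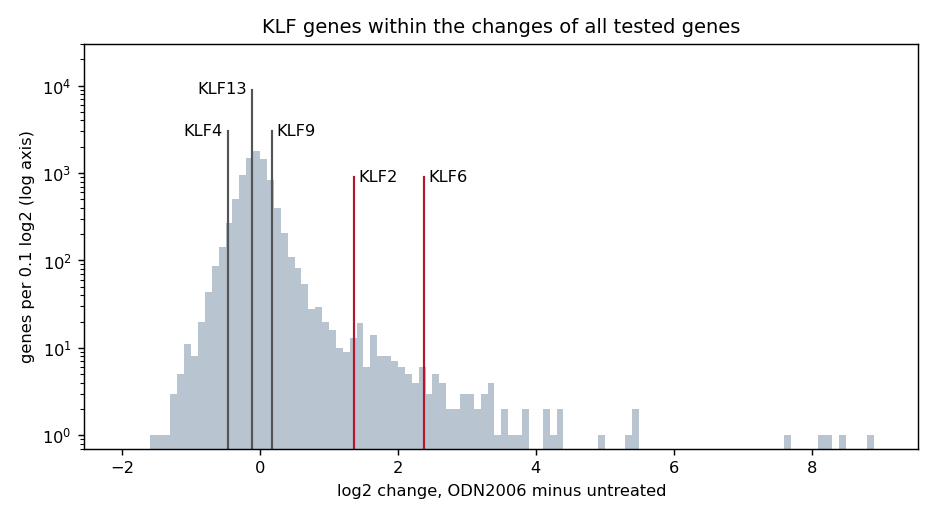
Distribution of the log2 change (x axis, ODN2006 minus untreated) over all 8706 tested genes (y axis, genes per 0.1 log2 units, log scale), with the 5 tested KLF genes marked. KLF6 at rank 55 and KLF2 at rank 142 lie in the right tail, KLF9 and KLF13 lie within the central peak, and KLF4, the fall at rank 399, lies on its lower side.

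Genes of the proteins through which KLF factors act gave no call at their brightest probe. Of 14 cofactor genes, 12 were tested, none passed and the median log2 change was -0.09. The brightest were HDAC1 (-0.14 ± 0.15 SE) and HDAC2 (-0.06 ± 0.15), which encode histone deacetylases of the SIN3 complexes. SIN3A differed by -0.12 ± 0.18. CTBP2, a corepressor partner of KLF3, had 0.43 ± 0.16 at its brightest probe (limma adjusted p = 0.2). A dimmer probe had 0.68 ± 0.16 (adjusted p = 0.0309). It was detected on 2 untreated arrays, so it entered the test only through the ODN2006 group. CTBP2 also passed when its probes were averaged (0.55, adjusted p = 0.028), but that mean includes the dimmer probe. Neither pass is therefore read as a rise of CTBP2.

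Known regulators of KLF genes or proteins likewise did not pass. Of 16 such genes, 12 were tested, with a median log2 change of 0.12 and a range from -0.31 to 0.33. Among those upstream of KLF2, MEF2D differed by -0.03 ± 0.17 SE, MEF2C by -0.08 ± 0.15, the kinase gene MAP2K5 by 0.15 ± 0.16 and MAPK7, which encodes ERK5, by -0.31 ± 0.18. MAPK7 was detected on 1 ODN2006 array only. SRF, the serum response factor that drives many early genes, differed by 0.28 ± 0.14, and WWP1, a ubiquitin ligase of KLF2 and KLF5, by 0.24 ± 0.14. For these 6 genes limma gave adjusted p from 0.393 to 0.979. The highest change was that of ELK1, a partner of SRF (adjusted p = 0.294).

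Genes described elsewhere as targets of KLF2 or KLF4 changed in both directions. Of 13 with a named probe, 9 were tested, 4 rose and 2 fell, and the median log2 change was -0.31. Across all tested genes 3.41% were called higher and 1.81% lower. The list was chosen with earlier results of these data known, and whether it differs from all genes was not tested. PIM1, a kinase that promotes survival (2.51 ± 0.15 SE), CDKN1A, a cell cycle inhibitor (1.85 ± 0.16), and CCR7, a lymph node homing receptor (1.24 ± 0.15), rose, as did CCND1, which was not called with median scaling. CDKN1C, also a cell cycle inhibitor, fell (-0.995 ± 0.18), as did MYC. The limma adjusted p of the 4 genes with values lay between 4.36e-07 and 0.00576. CDKN1B differed by -0.66 ± 0.19 at its brightest probe (adjusted p = 0.075), while a dimmer probe passed with -0.59 ± 0.15 (adjusted p = 0.0385). S1PR1 and THBD, which KLF2 activates in lymphocytes and endothelium, were not detected on all arrays of a group. With the replicate block 4 genes of this list fell, CDKN1B and TXNIP being the others.

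TGF-beta response genes, the setting in which KLF10 and KLF11 are known, also split. Of 16, 10 were tested, 4 rose and 2 fell, and the median log2 change was 0.08. The shares over all tested genes were 3.41% higher and 1.81% lower, and this list too was chosen with earlier results known. JUNB, an AP-1 subunit (2.23 ± 0.18 SE), and TGIF1, a corepressor of SMAD proteins (1.76 ± 0.16), rose. TGIF2 and ID2 were also called, but ID2 lost its call whenever 1 array was left out, with median scaling and when every probe was tested, and TGIF2 with median scaling and without untreated replicate 1 or 2. ID1 (-1.29 ± 0.14) and ID3 (-0.97 ± 0.14), inhibitors of DNA binding by basic helix-loop-helix factors, fell. The limma adjusted p of these 4 lay between 5.76e-06 and 0.00107. SMAD7, a feedback inhibitor that KLF10 is known to repress, differed by -0.42 ± 0.16 at its brightest probe (adjusted p = 0.224), and with the replicate block this difference passed (adjusted p = 0.0476). Both SMAD7 probes entered the test only through the untreated group, the brighter being detected on 2 ODN2006 arrays and the dimmer on none. Nothing is therefore read from that pass. TGFB1, SKI and SKIL were too dim to test.

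Of 8 glucocorticoid response genes, the programme to which KLF9 is known to belong, 6 were tested, 3 rose and none fell (median log2 change 1.00). Over all tested genes 3.41% were called higher and 1.81% lower, and this list was also chosen with earlier results known. The risers were SGK1, a kinase (3.35 ± 0.15 SE), NFKBIA, which encodes the NF-kB inhibitor IkB alpha (2.10 ± 0.17), and DUSP1, a phosphatase of MAP kinases (1.66 ± 0.14), with limma adjusted p from 3.50e-08 to 8.39e-06. All 3 are also known to respond to inflammatory signals. FKBP5 (0.15), TSC22D3 (0.34) and the receptor gene NR3C1 (-0.26) did not pass, nor did KLF9 itself.

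The genes outside the family whose 6 values lay nearest to those of KLF6, each gene centred on its untreated mean, were TRAF4, an adaptor of the TRAF family, PLEK, which encodes pleckstrin, and GPR84, a receptor for medium-chain fatty acids. Their root mean square distances from KLF6 over the 6 arrays were 0.07, 0.10 and 0.11 log2 units, out of 8696 genes compared. Their log2 changes were 2.35, 2.42 and 2.39. No KLF gene was called lower, so no such comparison was made for a fall.

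**Figure D5:**
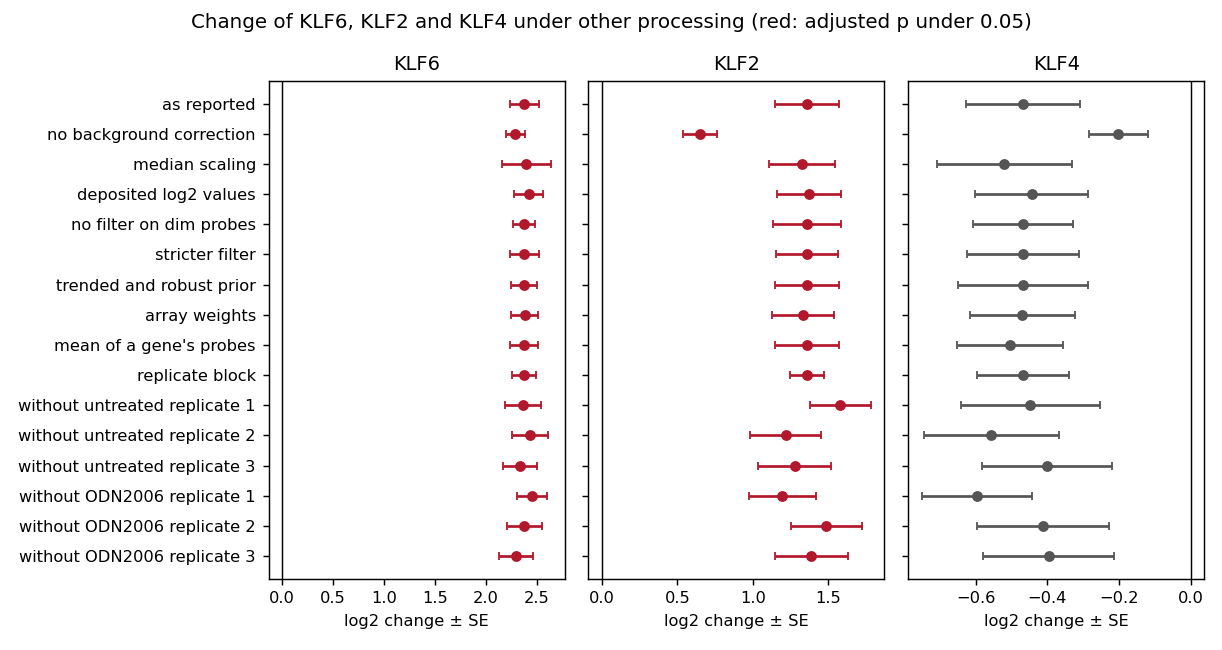
Log2 change ± SE (x axis) of KLF6, KLF2 and KLF4 as reported and under each of 15 other settings (rows), red where the adjusted p was under 0.05. KLF6 stayed between 2.29 and 2.45 and KLF2 between 0.65 and 1.58, both called in all settings shown, and KLF4 stayed between -0.60 and -0.20 and was called in none.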

How the data were processed

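Probe intensity on a linear scale was deposited by the authors as a non-normalized table, per the file headers, with detection p-values beside it. The deposited log2 values, for which the submitters' processing notes name limma, served only as an alternative, since the groups differ in their lowest value (4.19 untreated, -1.57 ODN2006) and appear to have been normalized separately. Raw intensities were corrected by normexp with control levels inferred from the detection p-values, given an offset of 16 and quantile-normalized together (neqc, limma 3.58.1, R 4.3.3). The test took in the 13816 probes with detection p below 0.01 throughout at least 1 group of 3 arrays. A gene is represented by its brightest tested probe. Differences were tested with lmFit and eBayes, two-sided, adjusted by Benjamini-Hochberg over all tested probes. The script was tested on simulated data.

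Symbols come from the platform annotation, updated through gene IDs (30068 of 30107 probes with 1 symbol; 8 had several and 17103 none here). The members and lists were chosen with earlier results of these data known. Named are all members, the other KLF and SP genes, up to 4 called genes of each list with the largest change or else its 2 brightest, and the 3 genes most like the largest rise and fall. A few further genes were picked with their values in view. Replicate numbers come from the titles. Same-numbered arrays deviated from their group means together (correlations of 0.41, 0.35 and 0.46 across tested probes), so the numbers appear to pair the samples, by the data and not by the labels. The main fit took no account of the replicate number, which was added as a term only in the alternative called the replicate block.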

Additional observations from a re-analysis of the deposited data

How the results depend on the processing

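KLF6 and KLF2 were called higher under all 15 alternatives and no KLF gene was called lower under any, with 2 or 3 KLF genes called higher when 1 array was left out (the third being KLF10, undetected in untreated cells). The adjusted p of KLF2 ran from 7.03e-05 with the replicate block to 0.0486 when every probe was tested. Over all genes, median scaling gave 193 rises and 46 falls, testing every probe gave 58 falls among 20041 genes, and the replicate block gave 358 falls and 405 rises, in place of 297 rises and 158 falls. With 1 array left out there were 51 to 116 falls and 224 to 268 rises, to which the smaller number of samples contributes. Otherwise the cause was not tested. Calls of lower KLF2 and KLF4 targets numbered 1 when every probe was tested and 4 with the replicate block, and TGF-beta genes called higher numbered 2 with median scaling and 2 to 3 with 1 array left out. Other KLF and SP genes called lower numbered 0 to 1 with 1 array left out. When probes were averaged 1 cofactor, CTBP2, was called higher, with a probe in its mean that entered only through the ODN2006 group. Of 17 genes called among the members and lists, 13 were called under every alternative. CDKN1C lost its call when every probe was tested (adjusted p = 0.0614), CCND1 with median scaling, TGIF2 in 3 alternatives and ID2 in 8. Of 13 values not called, those of HDAC2 and MEF2D turned direction, with ranges of -0.139 to 0.0447 and of -0.162 to 0.0878 when 1 array was left out, and MEF2D also turned to 0.00462 with median scaling and to 0.0195 with the deposited values. The replicate block changed no call of a KLF gene, and among the lists it added CDKN1B, TXNIP and SMAD7 as lower. The SMAD7 probe had entered the test only through the untreated group. Signal over background limits the data, with 28.5% to 32.7% of probes detected per array.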
